A study of Mus musculus with 2 samples.

Results

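The genes of histone H3 lysine 9 (H3K9) methylation and heterochromatin described here are Ehmt1, Ehmt2, Suv39h1, Suv39h2, Setdb1, Trim28, Zfp57, Cbx1, Cbx3 and Cbx5. Their expression was compared between mouse embryonic stem (ES) cells with a control hairpin and ES cells with a hairpin against the short histone variant H2A.B. Members were chosen as every probe set whose platform symbol is exactly one of these 10 names. This gave 21 of the 45118 probe sets in the table, for 8 of the 10 genes, out of 17097 genes that the table names. Suv39h1 and Zfp57 were named alone by no probe set and are not described further. Of the 21 probe sets, 20 had usable values and 1, of Suv39h2, did not.

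The cells were grown on gelatin without feeders, in medium with fetal bovine serum and leukaemia inhibitory factor (sold as ESGRO). Both groups carried a pMSCV-neo retrovirus with a U6-driven hairpin RNA, a control sequence in the group labelled Control KD and a sequence against H2A.B in the group labelled H2A.B KD, and both were kept in G418 for 2 to 4 weeks. The labels name no strain, clone or cell line, and the knockdown title carries the number 1 without saying what it counts. Each group had 1 Affymetrix array, made from 2 µg of total RNA, so no difference here has a replicate error or a p-value. Per the submitters' notes the values come from RMA, and they were taken as log2 intensities, since the scale is not given. RMA is a method that corrects background, equalises the arrays' distributions and condenses the probes of a set into 1 value.

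Methylation of H3K9 marks silent chromatin. Suv39h1 and Suv39h2 place the trimethyl mark at pericentromeric repeats, and the partners Ehmt2 (G9a) and Ehmt1 (GLP) place mono- and dimethylation across silent genes. Setdb1 trimethylates retroelements and imprinted regions, to which zinc finger proteins such as Zfp57 bring it through the corepressor Trim28 (KAP1). The HP1 proteins read the mark through their chromodomains, and are encoded by Cbx5 (HP1 alpha), Cbx1 (HP1 beta) and Cbx3 (HP1 gamma). In ES cells Setdb1 and Trim28 silence endogenous retroviruses, and Ehmt1 and Ehmt2 act as one complex on germline genes.

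The promoters below belong to the members with the largest differences, Ehmt1 and Cbx3, and to a close relative of each that differed little, Ehmt2 and Cbx5. Each is the run of 250 bases before an annotated transcript start in RefSeq on GRCm38.p6, read 5′ to 3′ on the gene's strand. Capitals mark matches, on either strand, to the GC box GGGCGG, the E-box CACGTG, the CCAAT box CCAAT, the TATA box TATAAA, and the core ATGGCGG of YY1 sites. The windows lie at chr2:24919610-24919859 (minus strand, Ehmt1), chr17:34898224-34898473 (plus strand, Ehmt2), chr6:51470366-51470615 (plus strand, Cbx3) and chr15:103239853-103240102 (minus strand, Cbx5).
Ehmt1: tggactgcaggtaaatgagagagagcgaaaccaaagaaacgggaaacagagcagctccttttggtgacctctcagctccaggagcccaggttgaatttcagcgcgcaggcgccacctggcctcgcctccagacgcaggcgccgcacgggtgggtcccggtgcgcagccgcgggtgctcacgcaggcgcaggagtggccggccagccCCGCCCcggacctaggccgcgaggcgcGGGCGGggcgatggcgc
Ehmt2: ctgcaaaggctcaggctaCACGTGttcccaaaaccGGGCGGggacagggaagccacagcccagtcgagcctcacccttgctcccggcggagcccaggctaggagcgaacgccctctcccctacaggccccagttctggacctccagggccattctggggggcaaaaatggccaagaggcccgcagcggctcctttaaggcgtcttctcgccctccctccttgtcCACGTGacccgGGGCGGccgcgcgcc
Cbx3: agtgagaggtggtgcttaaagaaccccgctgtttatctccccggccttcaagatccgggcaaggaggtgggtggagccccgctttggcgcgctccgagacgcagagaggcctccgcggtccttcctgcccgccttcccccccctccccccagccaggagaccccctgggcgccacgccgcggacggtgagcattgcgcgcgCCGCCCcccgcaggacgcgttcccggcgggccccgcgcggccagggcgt
Cbx5: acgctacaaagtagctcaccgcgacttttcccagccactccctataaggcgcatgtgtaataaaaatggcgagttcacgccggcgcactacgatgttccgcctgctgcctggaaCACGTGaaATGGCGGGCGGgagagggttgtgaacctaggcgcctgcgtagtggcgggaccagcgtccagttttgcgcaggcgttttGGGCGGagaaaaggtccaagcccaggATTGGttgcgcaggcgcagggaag

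These 4 windows hold between 18 and 29 CpG dinucleotides, against a median of 6 over all 32851 promoter windows of that length. Their G and C content was 69.2% for Ehmt1, 67.6% for Ehmt2, 73.2% for Cbx3 and 59.2% for Cbx5, against a median of 52.4%. The 10 genes have 16 such windows, and 12 of the 16 hold a GC box, against 32.7% of all windows. The Cbx3 window shown has 1 GC box and no other match, and the Ehmt2 window has 2 E-boxes, a motif held by 6.02% of all windows. Other shares of all windows were 33.8% for CCAAT, 12.4% for TATAAA and 2.21% for ATGGCGG. In the Cbx5 window a GC box and the YY1 core overlap by 2 bases. The windows shown for Ehmt1 and Cbx3, the pair that was lower, thus share the GC box, a motif of most member windows, and no other of the motifs searched. A second Cbx3 window, chr6:51471002-51471251, holds none of the motifs. A second Cbx5 window has 7 CpG dinucleotides and 51.2% G and C, near the medians over all windows. A second Ehmt2 window has 36 and 84.0%.

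Of the probe sets naming 1 gene, 0 name an H2A.B gene, and those naming several genes were not searched for one. The knockdown of the target was therefore not assessed here. Of 9 ES cell markers with a value, each at or above the median intensity over genes, 0 differed by 2-fold; Pou5f1, which encodes Oct4, had a control value of 12.65 and a knockdown value of 12.64, Sox2 at 12.38 and 12.41, and Nanog at 11.79 and 11.69. The largest differences among them were those of Esrrb, higher by 0.33 and 0.18 on its 2 probe sets, and Klf4, higher by 0.16 and 0.11; Utf1 differed by 0.06. Tdgf1 had no usable value. Fibroblast markers (8 genes), trophoblast markers (4 genes) and primitive endoderm markers (4 genes) also had 0 members that differed by 2-fold, with medians of 0.07, -0.04 and -0.0050. Of the fibroblast markers 7 of 8 were above 0, including all 4 at or above the median intensity over genes, with Col1a1 at 0.25, Acta2 at 0.19, and Col3a1 and Thy1 at 0.07 each; of the trophoblast markers 1 of 4 was above 0, with Eomes at -0.11, and of the endoderm markers 2 of 4. Over all genes, 47.3% were above 0, and 49.3% of those at or above the median intensity. At least 2-fold lower were 2.91% of all genes, and 1.13% were at least 2-fold higher. The part of these markers in the members' values was not tested. In the knockdown column, 618 values that are not log2 intensities were left out, and in the control column 1455 that repeat a value up to 20 rows above, to the last digit. The repeats lie in rows 18185 to 33642, called the middle section, with a first section above it and a last section below. Absolute differences had medians of 0.04, 0.15 and 0.17 in the first, middle and last section. Values of different probe sets are not compared with each other, since each has its own probes. In RNA from a whole culture, fewer cells expressing a gene and less RNA per cell cannot be told apart.

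Of the 20 usable member probe sets, 2 had a knockdown value at least 2-fold lower, 1 of Ehmt1 and 1 of Cbx3, and none was 2-fold higher. Over all 27614 usable probe sets naming 1 gene, 3.07% were at least 2-fold lower and 1.12% at least 2-fold higher. The members' count rests on that pair of probe sets. With a 1.5-fold limit, 3 were lower and 1 was higher, the further ones being the dim probe sets of Cbx3 and Suv39h2, and over all usable probe sets the shares were 6.23% and 2.87%. Differences were always knockdown minus control on the log2 scale. They were below 0 for 10 member probe sets and above 0 for 10, against 53.5% below 0 over all usable probe sets. Their median was 0.01, against -0.0077 over all usable probe sets, and their median absolute difference was 0.136, against 0.0743. Within 0.5 lay 16 of the 20, against 89.0% of all usable probe sets. The spread at hand is the one among probe sets of a gene on these arrays: its SD had a median of 0.06 over 6826 genes, is technical, and says nothing of variation between cultures.

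**Figure D1:**
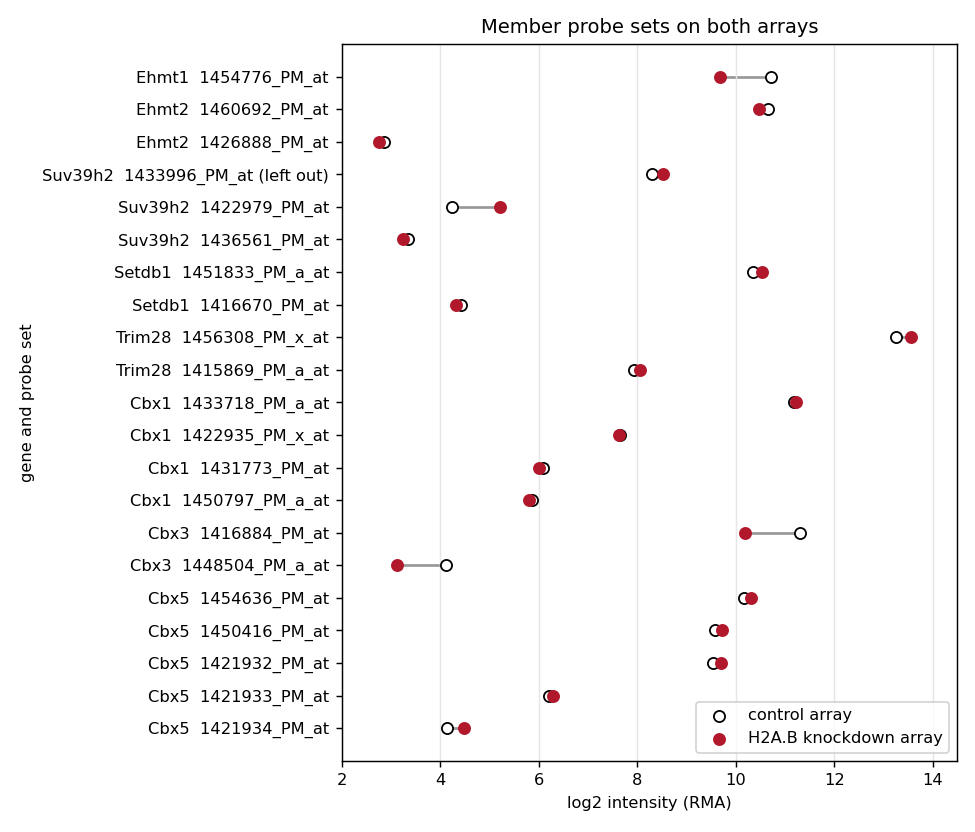
Log2 intensity (x axis) of the 21 member probe sets (rows) on the control array (open circles) and the H2A.B knockdown array (red circles), 1 array each, joined by a line. Ehmt1 and both Cbx3 probe sets are lower on the knockdown array by 1.00 or more after rounding, 1 dim Suv39h2 probe set is higher by 0.97, and the other pairs lie close together.

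Among the enzymes of mono- and dimethylation, Ehmt1 was lower and its partner nearly level. Ehmt1 has a single probe set, 1454776_PM_at, with a control value of 10.71 and a knockdown value of 9.69, a difference of -1.02 (2.03-fold lower). No other probe set is named for Ehmt1 alone, so there is none to set beside it. In its section of the table, the last, 1.64% of probe sets at or above the median intensity were at least 2-fold lower. Ehmt2 had 10.65 and 10.47 on its brighter probe set, a difference of -0.18, and 2.86 and 2.76 on its dimmer one, a difference of -0.10. Both Ehmt2 probe sets were thus lower, by 1.14-fold and 1.07-fold, and within the central 95% of probe sets of like intensity. Both were designed from the same transcript record, BI412952, so they share a target. The partners thus differed in size: the Ehmt1 value lay below the central 95% of its intensity range, -0.54 to 0.32, and both Ehmt2 values lay inside theirs. These ranges, here and below, pool all sections, which differ in spread. In the last section alone, at any intensity, 93.9% of probe sets had a smaller absolute difference than Ehmt1.

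Suv39h2, an enzyme that trimethylates H3K9 at pericentromeric repeats, gave values in opposite directions. The probe set 1422979_PM_at had 4.24 in control and 5.21 in knockdown cells, 1.96-fold higher (0.97), and is the only member value above the central 95% for its intensity. It is dim, below the median of 6.17 over probe sets. The probe set 1436561_PM_at, dimmer still, had 3.36 and 3.25, a difference of -0.11. The brightest, 1433996_PM_at, read 8.30 and 8.52 (0.22). Its control value is identical to the one 2 rows above it, and it was left out for that reason. The control value of 1436561_PM_at recurs 2 rows below it, so that it too is part of a repeated pair, as the earlier value. With the repeated values kept, the gene level value of Suv39h2, read from its brightest probe set, went from 0.97 to 0.22. A direction for Suv39h2 therefore rests on which probe set is read.

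Setdb1 and Trim28, the enzyme and the corepressor of retroelement silencing, stayed near their control values. Setdb1 went from 10.35 in control to 10.53 in knockdown cells on its brighter probe set (0.18), and 4.43 and 4.32 on its dimmer one (-0.11). The directions are opposite and both values lie inside the central 95% for their intensity. Trim28 read 13.26 in control and 13.57 in knockdown cells on 1456308_PM_x_at (0.30). The second Trim28 probe set, 1415869_PM_a_at, had 7.94 and 8.05 (0.11). Both were higher, by 1.23-fold and 1.08-fold, and both carry a suffix that marks probes shared between transcripts or with related sequences. The Trim28 values lie inside the central 95% for their intensity, the larger one near its upper limit of 0.33.

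The HP1 genes differed among themselves. Cbx3 (HP1 gamma) was lower on both of its probe sets, Cbx1 (HP1 beta) was level on 4, and Cbx5 (HP1 alpha) was slightly higher on 5.

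The brighter Cbx3 probe set, 1416884_PM_at, had a control value of 11.31 and a knockdown value of 10.18, a difference of -1.13 (2.19-fold lower). It lay below the central 95% for its intensity, -0.54 to 0.32, and in its section 0.803% of probe sets at or above the median intensity were 2-fold lower. The dimmer one, 1448504_PM_a_at, had 4.11 and 3.11, 1.9998-fold lower and so just short of the 2-fold limit. At that low intensity the central 95% runs from -1.71 to 0.54, and the value lies inside it. The SD of the 2 differences was 0.09, and they were read from different sections of the table, the first and the middle. Both were designed from the record BC018354. Of 6826 genes with at least 2 usable probe sets, 209 (3.06%) had every one of them at least 1.5-fold lower, and Cbx3 is among those 209.

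The brighter Cbx1 probe sets read 11.18 in control and 11.22 in knockdown cells (0.04), and 7.65 and 7.63 (-0.02). The 2 dim ones differed by -0.10 and -0.08, and the SD over the 4 differences was 0.06. Cbx1 values thus scattered on both sides of 0 within 0.10.

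For Cbx5, the 3 brighter probe sets read 10.17 and 10.31, 9.58 and 9.71, and 9.54 and 9.70, with differences of 0.14, 0.13 and 0.16. The 2 dimmer ones read 6.22 and 6.30 (0.08) and 4.14 and 4.48 (0.34). All 5 differences were above 0, with a median of 0.14 and an SD of 0.10. Each lay inside the central 95% for its intensity, and 4 of the 5 share the record NM_007626. Of 360 genes with at least 5 usable probe sets, 17 (4.72%) had all of them above 0.

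**Figure D2:**
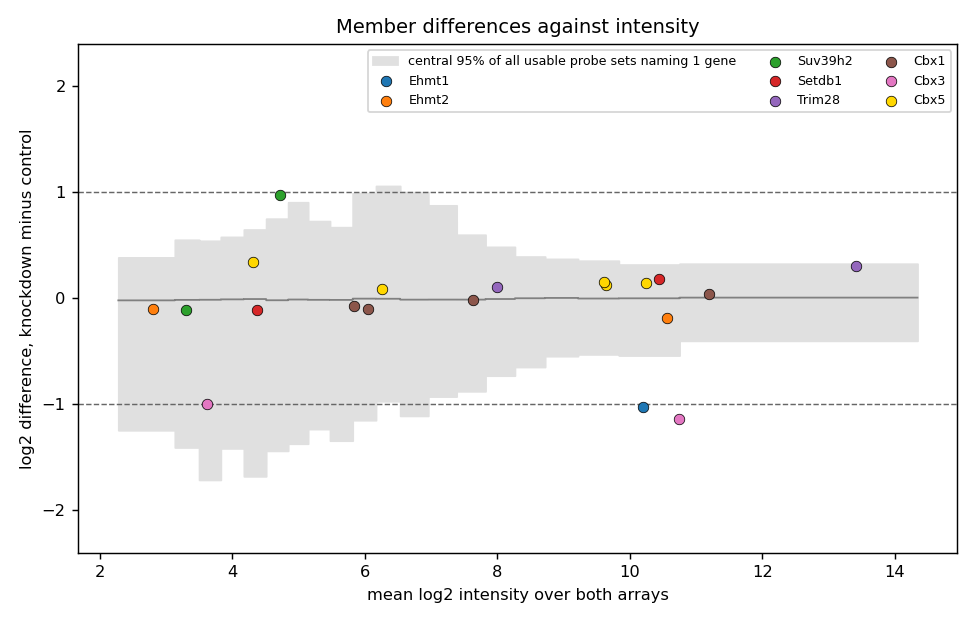
Log2 difference, knockdown minus control (y axis), of the 20 usable member probe sets against their mean log2 intensity (x axis), coloured by gene. The grey band holds the central 95% of all usable probe sets in 20 intensity bins, the grey line is their median, and the dashed lines mark 2-fold; Ehmt1 and the brighter Cbx3 probe set lie below the band, 1 Suv39h2 probe set lies above it and 17 lie inside.

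The differences over all genes are not smoothly distributed, most clearly in the first section, where 11 of the usable member probe sets were read. The 5 bins of 0.05 just below -0.85 held 133 probe sets, and the 5 bins just above it, closer to 0, held 29. From -0.55 to under -0.30 it held 390, and from 0.50 to under 0.55 it held 0. The bright Cbx3 probe set (-1.13) lies just outside the group of values around -1, in a bin of 8 probe sets, and the dim Suv39h2 probe set (0.97) near a smaller group around 1. In the middle and last sections, where the dim Cbx3 and the Ehmt1 probe sets were read, no gap of that depth separates the values near -1 from the rest. Steps occur there too: across -0.55 the count per bin went from 47 to 102 in the middle section and from 59 to 114 in the last, and across 0.40 from 151 to 44 and from 137 to 65. What part this uneven distribution has in the Cbx3 and Suv39h2 values was not tested.

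**Figure D3:**
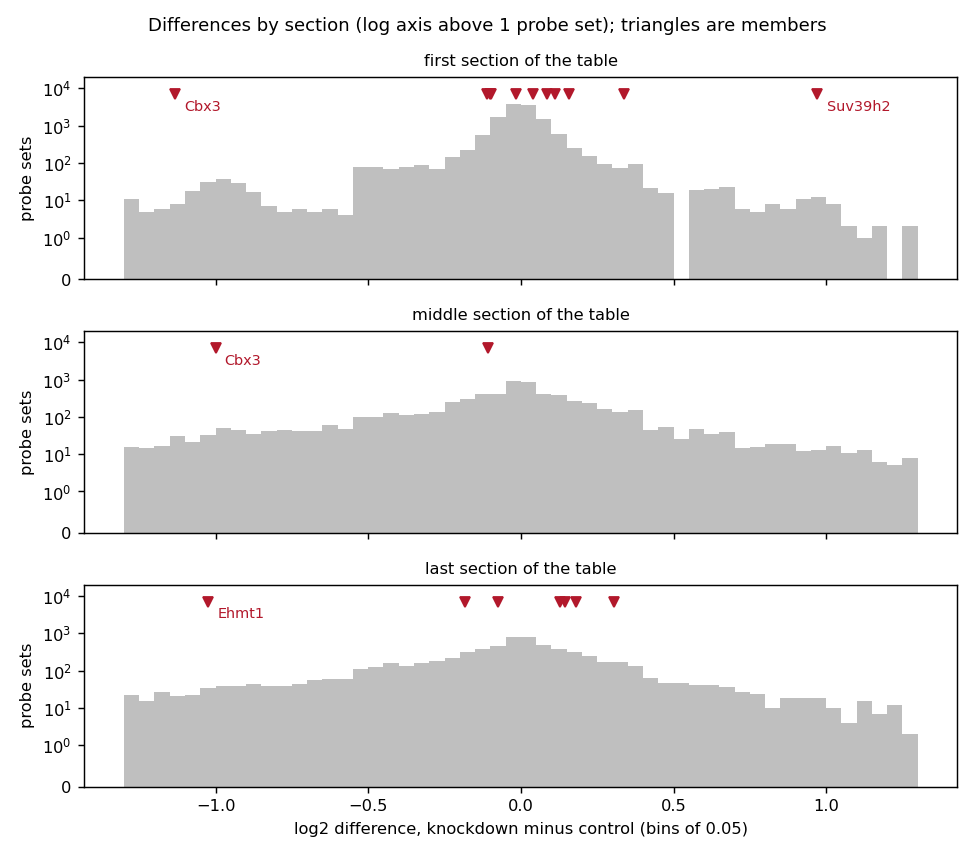
Number of usable probe sets (y axis, logarithmic above 1) by log2 difference, knockdown minus control (x axis, bins of 0.05), in the first, middle and last section of the table, with member probe sets as red triangles. The first section has a separate group near -1, just beyond which the bright Cbx3 probe set lies, and 0 probe sets between 0.50 and 0.55; the other sections show a broader single peak with smaller steps.

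The other genes of the pathway were read from lists, with the brightest usable probe set of each gene. Over all 16563 genes, 2.91% were at least 2-fold lower and 1.13% at least 2-fold higher, and the median difference was -0.0056. Above 0 were 47.3% of them. Cofactors and recruiters of the methyltransferases had a value for 12 of 14 genes, 0 of them 2-fold lower or higher, with 6 above and 6 below 0 and a median of 0.0032. The largest difference was that of Smarcad1, a remodeller that aids retroelement silencing together with Trim28, with a control value of 10.77 and a knockdown value of 9.98 on its single usable probe set (-0.79). Pphln1, a subunit of the HUSH silencing complex, differed by -0.39 and -0.20 on its 2 probe sets. Pogz, a binding partner of HP1, differed by 0.16, -0.17, 0.15 and 0.24, and the SUMO protease gene Senp7 by -0.16.

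Other genes of heterochromatin structure had a value for 10 of 14, 0 of them past 2-fold, with 7 above 0 and a median of 0.06. Incenp, of the chromosomal passenger complex, differed by -0.53 on its brightest probe set and by 0.15 and 0.07 on the others. Kmt5b, an H4K20 methyltransferase that acts downstream of H3K9 methylation, differed by -0.25 on its brightest probe set and by 0.38, 0.30, 0.49 and 0.11 on the other 4. Lrwd1, which binds origins and heterochromatin, differed by 0.19 and the proliferation gene Mki67 by 0.09.

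Of 12 H3K9 demethylases and their relatives, 10 had a value, 0 past 2-fold, with 7 above 0 and a median of 0.03. Phf8, a demethylase of H3K9 and H4K20, went from 7.75 in control to 6.90 in knockdown cells on its brighter probe set (-0.85), and 5.49 and 4.60 on its dimmer one (-0.89). Both probe sets were lower by similar amounts, and both were read from the last section. Kdm7a, of the same family, differed by 0.48 on its brightest probe set and by -0.18 and -0.58 on the dimmer ones. Kdm4b differed by 0.11 and Riox1 by -0.06.

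Genes with reported links to the members were read from 3 lists. The first, of imprinted genes, is not a list of genes that the members silence. Imprinted genes with control regions of the kind that Zfp57 and Trim28 protect had a value for 9 of 17; 1 was 2-fold lower and 0 were 2-fold higher, with 4 above 0 and a median of -0.02. The lower one, named after its value was seen, is Dlk1 (-1.06), a dim signal below the median over genes. Peg3, also below that median and named after its values were seen, was higher by 0.98 on its brightest probe set and by 0.36 on the other. Kcnq1ot1, an imprinted non-coding RNA, differed by 0.80 and 0.75 on its 2 bright probe sets, and by -0.32, 0.02, 0.09 and -0.50 on the dim ones. Meg3 had 10 usable probe sets that ranged from -0.60 to 0.60: 7 were higher, 2 were lower, among them the brightest (-0.19), and 1 had the same value on both arrays. Snrpn differed by -0.06 and Grb10 by 0.05 on the brightest probe set of each.

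Germline and other genes reported as repressed by Ehmt1 and Ehmt2 had a value for 8 of 15, only 2 of them at or above the median intensity over genes. Of the 8, 3 were above 0 and 5 below, with a median of -0.05. The 2 at or above the median intensity, Dazl and Tuba3a, are among the 3. Dazl, a germ cell RNA-binding protein gene, went from 6.37 in control to 7.36 in knockdown cells (0.99), and differed by -0.46 on its dimmer probe set. Tuba3a, a testis tubulin gene, differed by 0.03 and 0.18. Of the 8, 1 was 2-fold lower, Tex101 (-1.96), named after its value was seen and dim, and 0 were 2-fold higher. Genes reported as repressed through Setdb1 or Trim28 had a value for 13 of 16, 0 past 2-fold, with 6 above 0 and a median of -0.0060. The 4 trophoblast markers described above are among these 13, so their values enter both lists. Fbp2, a muscle fructose bisphosphatase gene, differed by -0.66, the keratin gene Krt18 by -0.29, the germline gene Tdrd12 by -0.19 and Serpinb6c by 0.19.

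**Figure D4:**
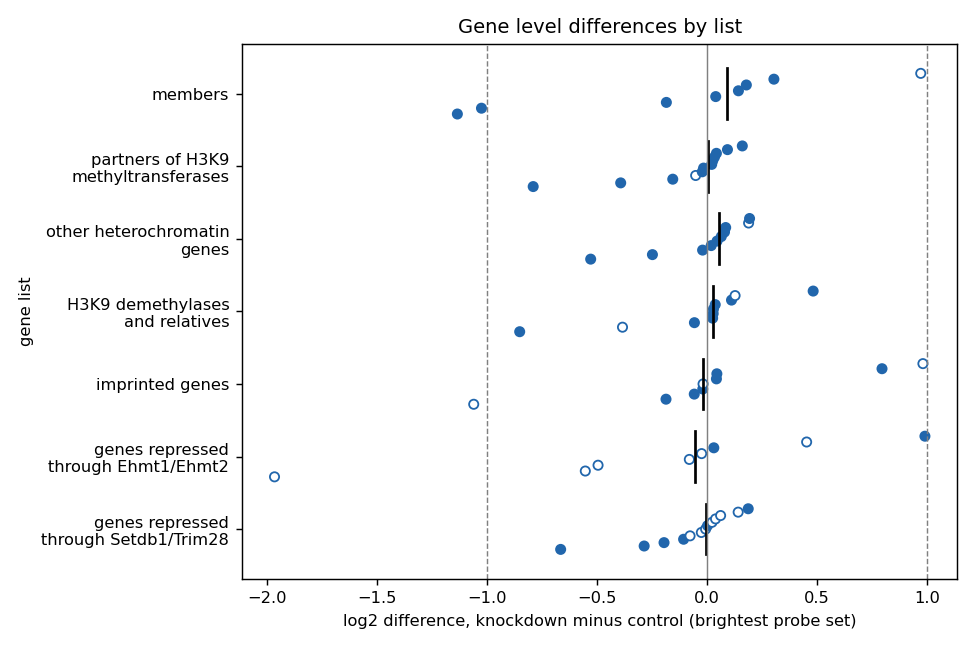
Log2 difference, knockdown minus control, on the brightest usable probe set of each gene (x axis), for the members and 6 related gene lists (rows). Filled points are at or above the median intensity over genes and open points below it, black bars are list medians and dashed lines mark 2-fold; Cbx3 and Ehmt1 are the only filled points beyond a dashed line.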

How the data were processed

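Total RNA of mouse ES cells was measured on 2 Affymetrix arrays, 1 per group, and no depth applies; the number of arrays limits the precision. Per the submitters' processing notes, the authors made the deposited values with RMA, version not stated; the scale of the deposited values is not given in the sources used here, and they were used as log2 intensities, since the control column runs from 0.801 to 14.5. The knockdown column was searched for series rising by exactly 1 (616 values, rows 2054 to 4710) and for values above 20 (2 values), and these were left out. Control values identical to one up to 20 rows above in either column (1455) were left out too; 16 knockdown values repeat such a value, none of a member. Both arrays had the same value at 174 positions, none of a member.

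Of 45118 probe sets, 28898 name 1 gene in the platform annotation, 28689 of them found in a GRCm38.p6 gene table used for symbols. Coordinates are from RefSeq on that build. Differences are knockdown minus control with no further centring. A gene takes its probe set with the highest mean, and intensity limits are the medians over usable probe sets (6.17) and genes (6.73). A single array for each group allows no test, and 2-fold is a fixed rule of size. Members and lists were chosen with earlier results of these data known; every member probe set is given, and from each other list up to 4 genes with the largest differences among those at or above the median over genes, any gene 2-fold apart on a probe set at or above the median over probe sets, and Pou5f1, Sox2 and Nanog as ES markers. The searches and the rule of size were tested on simulated arrays of 43045 probe sets in a knockdown against control comparison: 100% of planted step values, repeats and log2 differences of 1.5 were recovered, as planted in the form searched for. The simulated noise was far smaller than the planted differences, which lay past the limit, so their recovery was fixed in advance. It says nothing of how the rule does at differences near 2-fold in these data. Alternatives were keeping repeats, leaving out both rows of a pair, median, lowess and section centring, the median over probe sets, no suffixed probe sets, a 1.5-fold rule, an intensity filter and, added with the data in view, the middle section left out. Python 3.11.15, numpy 2.4.6, pandas 2.3.3 and statsmodels 0.14.6 were used.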

Additional observations from a re-analysis of the deposited data

How the results depend on the processing

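No paired analysis was possible because each group has 1 array, and for the same reason no replicate could be left out. The 2 member probe sets at least 2-fold lower stayed 2 under repeats kept, both rows of a pair left out, median, lowess and section centring, the intensity filter and without the middle section, and were 3 with the 1.5-fold rule; the count 2-fold higher was 0 throughout except 1 with the 1.5-fold rule. Without the middle section was chosen after seeing the data. The 2 probe sets at least 2-fold lower are bright, in no repeated pair and outside the middle section. The repeat settings, the intensity filter and leaving out the middle section could therefore not remove them. The median over the 8 gene level values was 0.0916. It was -0.0060 with the median over probe sets, and -0.11 with probe sets without a suffix. Trim28 has only suffixed probe sets, so that -0.11 leaves it out. Among the lists, the 1.5-fold rule gave 1 higher gene in the Ehmt1 and Ehmt2 list, 2 higher imprinted genes, and 1 lower gene each in the Setdb1 and Trim28, demethylase and partner lists, where 2-fold gave 0. Over all usable probe sets naming 1 gene, 6.23% were at least 1.5-fold lower and 2.87% higher. Over genes at or above the median intensity the shares were 3.84% and 1.8%, and the 1.5-fold share over all genes was not computed. The single lower gene of the Ehmt1 and Ehmt2 list was lost without the middle section (0) and with the intensity filter (0), which also left 0 lower imprinted genes; fewer genes remain in both. Of 154 values of single probe sets and genes under alternatives, 146 moved by less than the SD of 0.06 among probe sets of a gene, 8 by more, and 0 of the values past 2-fold changed sign. The repeat settings leave the value of a single probe set unchanged, and centring shifted each value by less than that SD. Most of the 154 belong to these settings, so the 146 say little of stability. With the median over probe sets, 5 gene values moved by more than the SD and 3 did not. Without suffixed probe sets 2 did and 5 did not, and with repeats kept 1 did. Cbx3 went from -1.13 to -1.07 with the median over its probe sets, Setdb1 from 0.18 to -0.11 without suffixed probe sets, Trim28 from 0.30 to 0.21 and Suv39h2 from 0.97 to 0.43 with the median over probe sets. Signal over background was not analysed, so sizes at dim probe sets are uncertain.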
